A study of Mus musculus with 12 samples.

Results

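Naive CD8 T cells of wild-type (WT) mice were compared after 12 h of stimulation and at rest. The comparison rests on 4 of the 12 RNA libraries of the series, chosen by their labels as the 2 WT libraries at 12 h and the 2 WT libraries at 0 h, and covers every gene that could be tested. Per the labels, the animals were female, 6 weeks old and on the C57Bl/6 background. CD8 T cells were enriched from spleen by negative selection and then sorted for naive cells, including by little or no CD44. The WT 12 h cells were cultured on immobilised antibodies to CD3 and CD28, and the WT 0 h cells were taken without culture. Cells at 0 h therefore differ from cells at 12 h in both the antibodies and the time in culture, and the effects of these cannot be told apart. The other 8 libraries (WT cells at 24 h, and cells homozygous for the Ikaros-Zn4 mutation, Zn4, at 0, 12 and 24 h) contributed to the estimate of the spread. The labels do not say whether replicates came from separate animals, so the p-values measure the spread between these samples only.

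A resting naive T cell is small, circulates through lymphoid organs, and keeps growth and division switched off with a set of transcription factors and inhibitors. Signals through the T cell receptor, which contains CD3, and through the costimulatory receptor CD28 switch on transcription factors such as NFAT, NF-kB, AP-1 and Myc. In CD8 T cells this is known to be followed by growth in cell size, expression of the high-affinity receptor for interleukin 2, division, and acquisition of killer functions.

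Levels were deposited as RPKM (read number divided by gene length and by the size of the library), and changes are differences of mean log2(RPKM + 1), WT 12 h minus WT 0 h, with the standard error (SE) of the model. The added 1 makes these changes smaller than the ratio of levels for genes near or below 1 RPKM. Values of 2 libraries are given as replicate 1 and then replicate 2. Genes are said to rise or fall only where they passed the test, and genes that did not pass it are named as such. RPKM is a share of the library: a lower value can mean fewer transcripts per cell, fewer cells with the transcript, or more of other transcripts, and these cannot be told apart in bulk RNA. The total read numbers, recovered from the steps of the values, were 24290660 and 33389808 in the WT 12 h libraries and 25607382 and 24463249 in the WT 0 h libraries. The listed genes held 82.9% and 83.7% of the reads in the WT 12 h libraries, against 73.8% and 76.0% in the WT 0 h libraries. For a 2 kb gene, 3 reads equal 0.0449 to 0.0618 RPKM in these libraries.

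One WT 12 h library went against its label. The summed level of 4 Y-linked genes was 38.9 RPKM in replicate 1 and 0.00198 RPKM in replicate 2 of the WT 12 h cells, against 0 RPKM in both WT 0 h libraries. Xist, the RNA that silences an X chromosome in female cells, had 0.0023 and 52.6 RPKM in WT 12 h cells, against 27.2 and 31.8 RPKM in WT 0 h cells. Xist did not pass the test, but was called lower without WT 12 h replicate 2 (-4.92). Replicate 1 at 12 h thus held Y-linked transcripts and almost no Xist, although its label gives a female animal. Results are therefore also given without this library. In that fit 7930 genes were called, against 8928 with it. Of the 8917 genes that were called with it and could still be tested, 7849 were called in the same direction and 0 in the opposite direction. Of 253 genes selected for naming, 242 kept their direction and their side of the threshold without it, 7 lost their call, 1 gained one and 3 changed direction.

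The CD8 T cell markers Cd3e, Cd8a and Cd8b1 stood at high levels in all 4 libraries. The marker list also held Cd247, which fell and is given below with the receptor signalling genes, and Lck, whose values are not given. Cd3e, a chain of the T cell receptor complex, had 239 and 252 RPKM in WT 12 h cells, against 143 and 165 RPKM in WT 0 h cells. Cd8b1, the beta chain of the CD8 coreceptor, had 227 and 212 RPKM in WT 12 h cells, against 285 and 273 RPKM in WT 0 h cells. Cd8a, the alpha chain, had 323 and 249 RPKM in WT 12 h cells, against 185 and 187 RPKM in WT 0 h cells, a change of 0.61 ± 0.13 (limma, Benjamini-Hochberg adjusted p = 0.0018) whose call was lost with median-ratio scaling (0.30) and quantile normalization (0.29). Cd4, the coreceptor of helper T cells, had 0.0306 and 0.0149 RPKM in WT 12 h cells, against 0.136 and 2.09 RPKM in WT 0 h cells, so that WT 0 h replicate 2 stood above the other libraries. Its change did not pass the test, but it was called lower without WT 0 h replicate 1 (-1.59), with a pseudocount of 0.1 (-2.55), with quantile normalization (-0.98), with limma-voom on recovered reads (-4.41) and with the replicate block (-0.87). Ctla4, the other of the CD4 T cell markers that was tested, had 6.29 and 3.68 RPKM in WT 12 h cells, against 32.9 and 16 RPKM in WT 0 h cells, a change of -2.04 ± 0.36 (adjusted p = 0.00069). Markers of B cells and class II antigen presentation summed to 5.41 and 5.26 RPKM in WT 12 h cells, against 3.03 and 3.55 RPKM in WT 0 h cells, with 4 of 10 listed in the table and 2 tested. Myeloid markers, 2 of 12 in the table, summed to 20.8 and 20.3 RPKM in WT 12 h cells, against 13.4 and 13.8 RPKM in WT 0 h cells, and nearly all of it was Cst3, a protease inhibitor made by many cell types. None of the 6 natural killer and 6 erythroid markers was in the table. The part of other cells in the results was not tested.

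Most of the measured transcripts differed between WT 12 h and WT 0 h cells. Of 12726 genes tested, 8928 (70.2%) passed the test (limma, Benjamini-Hochberg adjusted p under 0.05): 5488 (43.1%) were higher and 3440 (27.0%) were lower in WT 12 h cells. At least a 2-fold change was present in 4169 of them (32.8%), of which 2668 (21.0%) were higher and 1501 (11.8%) lower. Only 39 genes rose by 4 or more on the log2 scale and 17 fell by as much, and 7 rose and 0 fell by 6 or more. Both WT 12 h libraries lay above both WT 0 h libraries for 6478 genes (50.9%) and below both for 4266 genes (33.5%), so that groups without overlap, where they are named below, say little about a single gene.

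The split between higher and lower genes depended on the scaling. The median change over all tested genes was 0.20 with the deposited values, -0.02 with median-ratio scaling and 0.01 with quantile normalization. With median-ratio scaling 4364 genes were higher and 4528 lower, and with quantile normalization 4540 were higher and 4336 lower. The listed genes summed to 284956 and 287649 RPKM in WT 12 h cells, against 231076 and 223222 RPKM in WT 0 h cells. For each gene group below, the median change is therefore also given relative to that of all tested genes (the group median minus the median of all), and its counts are to be read against 43.1% higher and 27.0% lower. Many of these percentages are close to that background, and where they are, they say nothing particular about the group. Where no counts without WT 12 h replicate 1 are given for a group, leaving it out moved its number of rises and its number of falls by at most 3, except for the numbered zinc-finger genes, which had 66 rises and 68 falls without it.

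**Figure D1:**
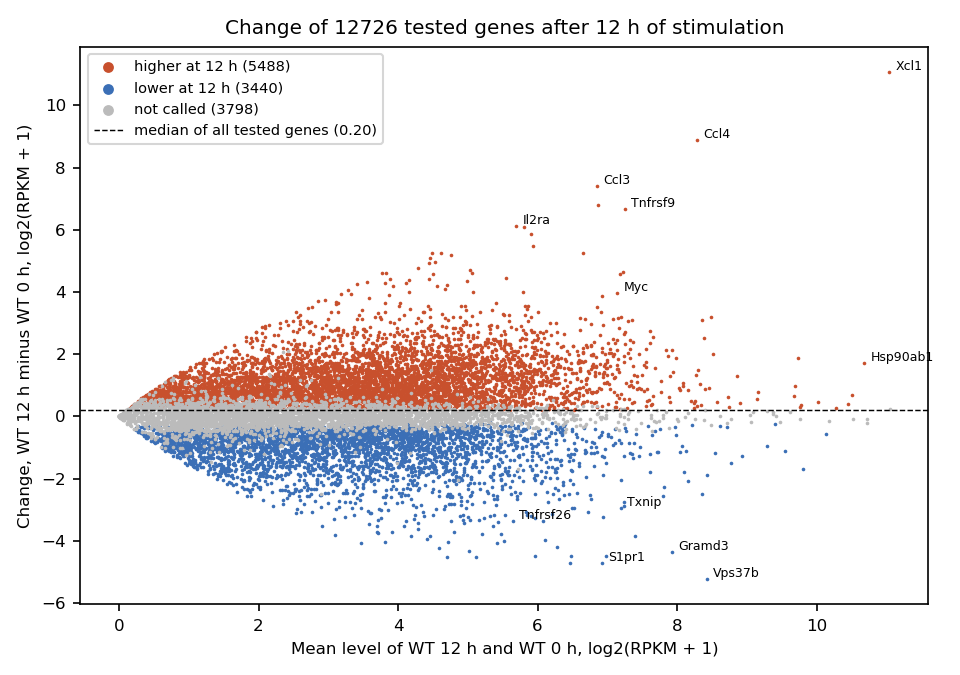
Each point is 1 of the 12726 tested genes, with its mean level over the WT 12 h and WT 0 h libraries on the x axis and its change (WT 12 h minus WT 0 h) on the y axis, both in log2(RPKM + 1) units; red points were called higher, blue points lower and grey points were not called, and the dashed line marks the median change of 0.20. Xcl1 stands apart at the top right, and Vps37b and Gramd3 are among abundant transcripts that fell.

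The largest rises included chemokines, receptors for cytokines and costimulation, and inhibitors of signalling. Xcl1, a chemokine that attracts cross-presenting dendritic cells, had 3995 and 4436 RPKM in WT 12 h cells, against 1.19 and 0.782 RPKM in WT 0 h cells. It rose by 11.06 ± 0.18 (limma adjusted p = 2.2e-09), and the ratio of its mean levels was 4266. In WT 12 h cells it was the gene with the highest RPKM in each library, with 1.4% and 1.54% of the summed RPKM, against ranks 10643 and 11264 in WT 0 h cells.

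Ccl4, an inflammatory chemokine, had 468 and 778 RPKM in WT 12 h cells, against 0.178 and 0.372 RPKM in WT 0 h cells. It rose by 8.89 ± 0.24 (adjusted p = 1.2e-08). Ccl3, a related chemokine, had 121 and 337 RPKM in WT 12 h cells, against 0.204 and 0.213 RPKM in WT 0 h cells. It rose by 7.39 ± 0.38 (adjusted p = 1.8e-07). The WT 12 h libraries differed between themselves for both: without replicate 1 the rises were 9.26 for Ccl4 and 8.13 for Ccl3, and without replicate 2 they were 8.53 for Ccl4 and 6.66 for Ccl3. Il2ra, the subunit that gives the interleukin 2 receptor its high affinity, had 106 and 96.4 RPKM in WT 12 h cells, against 0.376 and 0.594 RPKM in WT 0 h cells, and rose by 6.11 ± 0.17 (adjusted p = 1.7e-08). Tnfrsf9, the costimulatory receptor 4-1BB, had 319 and 283 RPKM in WT 12 h cells, against 1.23 and 2.94 RPKM in WT 0 h cells, and rose by 6.67 ± 0.24. For each of these genes the lowest WT 12 h value was more than the highest WT 0 h value.

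Inhibitors of signalling rose beside them. Rgs16, which shortens signals from G protein-coupled receptors, had 191 and 271 RPKM in WT 12 h cells, against 1.32 and 0.821 RPKM in WT 0 h cells, a rise of 6.80 ± 0.19. Spry1, an inhibitor of the Ras-MAP kinase pathway, had 98.7 and 119 RPKM in WT 12 h cells, against 0.766 and 0.436 RPKM in WT 0 h cells, a rise of 6.10 ± 0.13. The inhibitory receptor gene Pdcd1, which encodes PD-1, had 110 and 125 RPKM in WT 12 h cells, against 1.74 and 1.59 RPKM in WT 0 h cells, a rise of 5.47 ± 0.30. Hivep3, a zinc-finger transcription factor, and Tnfsf14, the TNF family ligand LIGHT, completed the 10 largest rises with changes of 5.87 ± 0.18 and 5.26 ± 0.18. All 10 stood above the WT 0 h range in both WT 12 h libraries.

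The largest falls included S1pr1 and Il7r, receptors that keep naive cells circulating and alive, and genes of less familiar function. Vps37b, a subunit of the ESCRT-I complex that sorts membrane proteins for degradation, had 19 and 15.2 RPKM in WT 12 h cells, against 671 and 668 RPKM in WT 0 h cells, and fell by 5.22 ± 0.29 on the log2 scale (limma adjusted p = 2.8e-07). S1pr1, the sphingosine 1-phosphate receptor that lets T cells leave lymphoid organs, had 7.12 and 8.87 RPKM in WT 12 h cells, against 239 and 228 RPKM in WT 0 h cells, and fell by 4.71 ± 0.17 (adjusted p = 3.1e-08). Il7r, the receptor chain for the survival cytokine interleukin 7, had 4.35 and 6.55 RPKM in WT 12 h cells, against 129 and 209 RPKM in WT 0 h cells, and fell by 4.70 ± 0.27 (adjusted p = 3.7e-07). For each of them both WT 12 h values lay far below both WT 0 h values.

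Ifngr1, the ligand-binding chain of the interferon gamma receptor, had 10.3 and 8.91 RPKM in WT 12 h cells, against 261 and 220 RPKM in WT 0 h cells, a change of -4.50 ± 0.12. Cxcr4, the receptor of the chemokine CXCL12, had 1.18 and 2.24 RPKM in WT 12 h cells, against 94.2 and 37.8 RPKM in WT 0 h cells, a change of -4.51 ± 0.39, and its WT 0 h libraries differed between themselves. Tsc22d3, a glucocorticoid-induced regulator also called GILZ, had 3.87 and 4.57 RPKM in WT 12 h cells, against 141 and 95 RPKM in WT 0 h cells, a change of -4.49 ± 0.33. Plaur, the urokinase receptor, Tcp11l2 and Gramd3 were also among the 10 largest falls, with changes of -4.53 ± 0.41, -4.50 ± 0.18 and -4.37 ± 0.16. The groups did not overlap for any of these 9 genes, which their choice by size of fall makes likely.

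**Figure D2:**
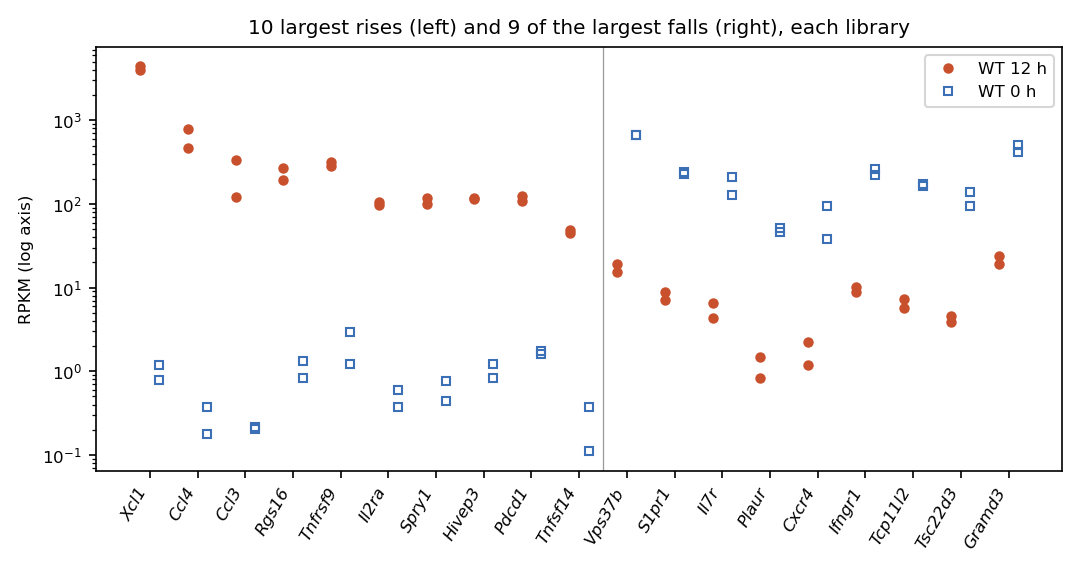
RPKM on a log axis in each library for the 10 largest rises (left) and 9 of the 10 largest falls (right); filled circles are the 2 WT 12 h libraries and open squares the 2 WT 0 h libraries. The groups do not overlap for any of the 19 genes, and Xcl1 spans the widest range, with 3995 and 4436 RPKM in WT 12 h cells against 1.19 and 0.782 RPKM in WT 0 h cells.

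Some genes went between near absence and clear expression. In 22 genes both WT 0 h values were below 0.5 RPKM and both WT 12 h values were at least 10 RPKM. Besides Ccl4, Ccl3 and Tnfsf14, they included Npas4, an activity-induced transcription factor best known from neurons, with 49.1 and 53.9 RPKM in WT 12 h cells, against 0.477 and 0.374 RPKM in WT 0 h cells. Lag3, an inhibitory receptor that binds class II molecules, had 51.6 and 33.7 RPKM in WT 12 h cells, against 0.0926 and 0.155 RPKM in WT 0 h cells. Bcat1, the cytosolic enzyme that transfers the amino group of branched-chain amino acids, had 25.2 and 25 RPKM in WT 12 h cells, against 0.0545 and 0.0702 RPKM in WT 0 h cells and one of the smallest errors of the large changes, 4.62 ± 0.08 (adjusted p = 2.2e-09). Irf8, an interferon regulatory factor, had 32.3 and 19.5 RPKM in WT 12 h cells, against 0.349 and 0.313 RPKM in WT 0 h cells. Nrn1, known as a neuronal surface protein, had 23 and 60.3 RPKM in WT 12 h cells, against 0.0885 and 0.185 RPKM in WT 0 h cells, with unequal values in the WT 12 h libraries. Lad1, Spry2 and Plek were the others among the 10 with the highest levels. The reverse pattern was seen in 2 genes. Emp1, an epithelial membrane protein, had 0.122 and 0.246 RPKM in WT 12 h cells, against 26.8 and 13 RPKM in WT 0 h cells. Ggt1, an enzyme of glutathione breakdown, had 0.145 and 0.114 RPKM in WT 12 h cells, against 17 and 13.1 RPKM in WT 0 h cells.

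Cytokine and chemokine genes moved in both directions. Of 18 tested members of 24 listed, 10 rose and 2 fell, and the median change was 0.98, or 0.79 relative to all tested genes. With median-ratio scaling 10 rose and 4 fell. Ccl9, another chemokine, had 9.79 and 25.3 RPKM in WT 12 h cells, against 0 and 0.0403 RPKM in WT 0 h cells, and rose by 4.05 ± 0.36, with unequal values at 12 h. Ifng, the main inflammatory cytokine of CD8 T cells, had 13.4 and 9.7 RPKM in WT 12 h cells, against 0.0971 and 0.102 RPKM in WT 0 h cells, and rose by 3.50 ± 0.20. Lta, or lymphotoxin alpha, had 54 and 63.6 RPKM in WT 12 h cells, against 10.6 and 8.13 RPKM in WT 0 h cells, and rose by 2.54 ± 0.13. Tnf had 21.8 and 51.7 RPKM in WT 12 h cells, against 5.86 and 5.99 RPKM in WT 0 h cells, and rose by 2.32 ± 0.35. Il2, the T cell growth factor, stayed low at 1.08 and 2.2 RPKM in WT 12 h cells, against 0.0683 and 0 RPKM in WT 0 h cells, which corresponds to 30 and 84 reads in WT 12 h cells against 2 and 0 reads in WT 0 h cells, and rose by 1.32 ± 0.20 (adjusted p = 0.00022). The members that fell were Il16 and Ltb. Il16, a T cell chemoattractant, had 3.95 and 5.15 RPKM in WT 12 h cells, against 26.1 and 28.2 RPKM in WT 0 h cells (log2 change -2.35 ± 0.14). Ltb, the membrane partner of lymphotoxin alpha, had 83.7 and 90.4 RPKM in WT 12 h cells, against 188 and 239 RPKM in WT 0 h cells (log2 change -1.28 ± 0.26).

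Of 24 cytokine receptor genes tested of 25 listed, 4 rose and 15 fell, with a median change of -1.27, or -1.47 relative to all tested genes. Il12rb1, a chain shared by the interleukin 12 and interleukin 23 receptors, had 41.1 and 39.9 RPKM in WT 12 h cells, against 1.2 and 0.683 RPKM in WT 0 h cells, and rose by 4.43 ± 0.28. Il15ra, which presents interleukin 15, had 8.81 and 8.5 RPKM in WT 12 h cells, against 0.958 and 0.556 RPKM in WT 0 h cells, and rose by 2.47 ± 0.18. The chains that Il2ra pairs with changed little beside it. Il2rb had 129 and 133 RPKM in WT 12 h cells, against 189 and 155 RPKM in WT 0 h cells, a change of -0.38 ± 0.11 whose call was lost when replicate 1 of either time was left out. Il2rg had 172 and 213 RPKM in WT 12 h cells, against 142 and 138 RPKM in WT 0 h cells, a rise of 0.45 ± 0.10 whose call was lost with median-ratio scaling and with quantile normalization. The second chain of the interferon gamma receptor, Ifngr2, had 1.14 and 1.73 RPKM in WT 12 h cells, against 50.6 and 38.3 RPKM in WT 0 h cells, and fell by 4.22 ± 0.23, close to the fall of Ifngr1. Both receptor chains thus stood below their resting range while the ligand gene Ifng stood above it.

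TNF superfamily ligands and receptors had 9 rises and 2 falls among 21 tested of 23 listed. Their median change was 0.25, or 0.05 relative to all tested genes, and with median-ratio scaling 9 rose and 6 fell. Tnfsf8, the CD30 ligand, had 62.9 and 83.2 RPKM in WT 12 h cells, against 5.57 and 6.11 RPKM in WT 0 h cells (log2 change 3.42 ± 0.18). Fasl, which triggers cell death through Fas, had 10.9 and 10.3 RPKM in WT 12 h cells, against 0.424 and 0.38 RPKM in WT 0 h cells (log2 change 3.05 ± 0.11). Tnfrsf4, the costimulatory receptor OX40, had 20.6 and 30.2 RPKM in WT 12 h cells, against 3.43 and 5.84 RPKM in WT 0 h cells (log2 change 2.24 ± 0.30). Tnfrsf26, a member of the family in mice, was the clearest fall, with 6.51 and 9.52 RPKM in WT 12 h cells, against 93.1 and 86.6 RPKM in WT 0 h cells (log2 change -3.35 ± 0.17). The groups did not overlap for any of these.

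Genes of T cell receptor signalling showed no common direction: of 30 tested, 10 rose and 11 fell, with a median of -0.18, or -0.38 relative to all tested genes. With median-ratio scaling 9 rose and 17 fell. Surface regulators of the receptor were among the rises. Cd5, a receptor that dampens T cell receptor signals, had 537 and 637 RPKM in WT 12 h cells, against 70.2 and 63.6 RPKM in WT 0 h cells (log2 change 3.11 ± 0.09). Cd6, a related receptor, had 337 and 351 RPKM in WT 12 h cells, against 63.3 and 52.7 RPKM in WT 0 h cells (log2 change 2.55 ± 0.12). Lcp2, the adaptor SLP-76, had 166 and 190 RPKM in WT 12 h cells, against 33.6 and 39.6 RPKM in WT 0 h cells (log2 change 2.25 ± 0.18). Zap70, the kinase that binds the phosphorylated receptor, had 201 and 173 RPKM in WT 12 h cells, against 66.7 and 60.5 RPKM in WT 0 h cells (log2 change 1.54 ± 0.13).

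The 11 members that fell included Themis and Cd247. Themis, an adaptor that tunes receptor signals, had 2.06 and 2.24 RPKM in WT 12 h cells, against 12.3 and 14.2 RPKM in WT 0 h cells (log2 change -2.18 ± 0.16). Cd247, the zeta chain that carries the signal into the cell, had 13.9 and 13.6 RPKM in WT 12 h cells, against 43.1 and 48.9 RPKM in WT 0 h cells (log2 change -1.67 ± 0.15). Both WT 12 h values lay outside the WT 0 h range for each of these rises and falls, and Zap70 and Cd247, which bind each other in the signalling receptor, moved in opposite directions.

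Of 34 transcription factors of activation and effector function, 16 rose and 12 fell, with a median of 0.40, or 0.21 relative to all tested genes. Without WT 12 h replicate 1 the counts were 14 and 6. Myc, which drives growth, had 272 and 254 RPKM in WT 12 h cells, against 25 and 10.1 RPKM in WT 0 h cells, and rose by 3.96 ± 0.30 (adjusted p = 2.2e-06). Irf4, which is induced in proportion to receptor signals, had 257 and 263 RPKM in WT 12 h cells, against 45.2 and 16.7 RPKM in WT 0 h cells (log2 change 3.19 ± 0.37). Fosl1, an AP-1 subunit, had 30.4 and 33.4 RPKM in WT 12 h cells, against 0.595 and 0.766 RPKM in WT 0 h cells (log2 change 4.29 ± 0.15). Tbx21, or T-bet, which directs effector differentiation, had 12.9 and 9.65 RPKM in WT 12 h cells, against 1.07 and 0.296 RPKM in WT 0 h cells (log2 change 2.89 ± 0.37). The immediate-early genes Nr4a1 and Egr1 were also higher. Nr4a1, an orphan nuclear receptor, had 125 and 179 RPKM in WT 12 h cells, against 49.9 and 37 RPKM in WT 0 h cells (log2 change 1.77 ± 0.20). Egr1, a zinc-finger factor, had 37.6 and 51.7 RPKM in WT 12 h cells, against 11.9 and 14.1 RPKM in WT 0 h cells (log2 change 1.69 ± 0.21).

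Some AP-1 genes fell. Fosb had 1.6 and 1.49 RPKM in WT 12 h cells, against 48.1 and 30.4 RPKM in WT 0 h cells, and fell by 3.95 ± 0.42 (adjusted p = 1.9e-05). Fosl2 had 14 and 17.9 RPKM in WT 12 h cells, against 49.5 and 91.9 RPKM in WT 0 h cells (log2 change -2.03 ± 0.30). Batf, an AP-1 family factor of effector cells, had 15.7 and 17.6 RPKM in WT 12 h cells, against 50.9 and 39.7 RPKM in WT 0 h cells (log2 change -1.38 ± 0.15). Crem, a cyclic AMP response factor, had 3.59 and 3.28 RPKM in WT 12 h cells, against 11.9 and 18 RPKM in WT 0 h cells (log2 change -1.82 ± 0.29). Jun had 5.73 and 7.38 RPKM in WT 12 h cells, against 22.3 and 9.54 RPKM in WT 0 h cells, and the call of its change of -1.06 ± 0.38 was lost when either WT 12 h library or replicate 1 of WT 0 h was left out. Transcripts of Fosb, Fosl2, Batf and Crem were thus highest in the unstimulated cells.

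Regulators of quiescence and the naive state mostly fell. Of 28 tested, 3 rose and 22 fell, 18 of them at least 2-fold, and the median was -1.45, or -1.64 relative to all tested genes. Without WT 12 h replicate 1 the counts were also 3 and 22. Klf2, which keeps S1pr1 expressed, had 19.8 and 22 RPKM in WT 12 h cells, against 324 and 304 RPKM in WT 0 h cells, and fell by 3.85 ± 0.26 (adjusted p = 9.5e-07). Klf3, a related repressor, had 6.18 and 8.22 RPKM in WT 12 h cells, against 108 and 149 RPKM in WT 0 h cells (log2 change -3.98 ± 0.21). Tob1, an antiproliferative protein, had 3.85 and 4.63 RPKM in WT 12 h cells, against 50.3 and 60.7 RPKM in WT 0 h cells (log2 change -3.43 ± 0.24). Pik3ip1, an inhibitor of PI3 kinase, changed by -3.78 ± 0.36.

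Lef1, Tcf7 and Foxo1 of the same list fell too. Lef1, a relative of Tcf7 in T cell development, had 10.5 and 12.5 RPKM in WT 12 h cells, against 71.6 and 72.6 RPKM in WT 0 h cells (log2 change -2.55 ± 0.13). Tcf7, or TCF1, had 133 and 161 RPKM in WT 12 h cells, against 502 and 576 RPKM in WT 0 h cells (log2 change -1.87 ± 0.13) and remained above 100 RPKM in each WT 12 h library. Foxo1, which drives Klf2 and Il7r transcription, had 14.7 and 17.3 RPKM in WT 12 h cells, against 46.8 and 55.5 RPKM in WT 0 h cells (log2 change -1.62 ± 0.16). The members that rose were Bach2, Foxp1 and Id3. Bach2, a repressor of effector genes, had 55.2 and 61.1 RPKM in WT 12 h cells, against 18.2 and 18.6 RPKM in WT 0 h cells (log2 change 1.61 ± 0.09). Foxp1, which maintains quiescence, had 45 and 42.2 RPKM in WT 12 h cells, against 21.5 and 20.2 RPKM in WT 0 h cells (log2 change 1.03 ± 0.08). Id3, an inhibitor of E proteins, had 43.3 and 48 RPKM in WT 12 h cells, against 21.7 and 8.1 RPKM in WT 0 h cells (log2 change 1.70 ± 0.41). Each stood above both resting libraries.

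Negative feedback regulators moved in both directions. Of 24 tested, 12 rose and 8 fell, with a median of 0.57, or 0.37 relative to all tested genes. The members that rose included Spry1, Spry2 and a pair of phosphatases that act on the MAP kinase ERK. Dusp6 had 45.7 and 72.4 RPKM in WT 12 h cells, against 7.42 and 3.63 RPKM in WT 0 h cells (log2 change 3.23 ± 0.32). Dusp4 had 32.5 and 36.6 RPKM in WT 12 h cells, against 5.2 and 1.82 RPKM in WT 0 h cells (log2 change 3.08 ± 0.35). The members that fell included the following 4. Nfkbia, which encodes the inhibitor IkB-alpha, had 54.4 and 73.4 RPKM in WT 12 h cells, against 404 and 356 RPKM in WT 0 h cells (log2 change -2.57 ± 0.24). Tnfaip3, the ubiquitin-editing protein A20, had 13.4 and 14.3 RPKM in WT 12 h cells, against 73.2 and 91.1 RPKM in WT 0 h cells (log2 change -2.48 ± 0.26). Dusp10, a phosphatase of the stress kinases JNK and p38, had 3.44 and 4.42 RPKM in WT 12 h cells, against 78.3 and 57 RPKM in WT 0 h cells (log2 change -3.79 ± 0.25). Socs3, an inhibitor of cytokine receptors, had 4.17 and 3.35 RPKM in WT 12 h cells, against 28.2 and 26 RPKM in WT 0 h cells (log2 change -2.57 ± 0.25).

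Homing and migration genes fell in 17 and rose in 7 of 29 tested, with a median of -1.15, or -1.34 relative to all tested genes. Ccr9, a receptor for the gut chemokine CCL25, had 2.89 and 4.2 RPKM in WT 12 h cells, against 37.3 and 41.8 RPKM in WT 0 h cells (log2 change -3.17 ± 0.17). The integrin chains Itga4 and Itgb7, which together bind the gut addressin, fell as well. Itga4 had 2.72 and 3.9 RPKM in WT 12 h cells, against 26.2 and 29.7 RPKM in WT 0 h cells (log2 change -2.76 ± 0.31). Itgb7 had 17.1 and 26.2 RPKM in WT 12 h cells, against 130 and 120 RPKM in WT 0 h cells (log2 change -2.51 ± 0.26). Ccr7, a chemokine receptor for entry into lymph nodes, had 195 and 266 RPKM in WT 12 h cells, against 624 and 657 RPKM in WT 0 h cells (log2 change -1.49 ± 0.36). Itgal, the alpha chain of the adhesion receptor LFA-1, was higher, with 145 and 141 RPKM in WT 12 h cells, against 56.4 and 67.9 RPKM in WT 0 h cells (log2 change 1.20 ± 0.12). Cd44, the adhesion receptor whose low surface level was a criterion of the sort, had 10.4 and 14.8 RPKM in WT 12 h cells, against 1.23 and 1.39 RPKM in WT 0 h cells (log2 change 2.54 ± 0.20). Among the falls of this group that are named here, the order from the largest was S1pr1, Cxcr4, Ccr9, Itga4, Itgb7 and Ccr7. The other falls of the group are not ranked.

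Costimulatory and inhibitory receptors rose in 11 and fell in 7 of 21 tested, with a median of 0.63, or 0.43 relative to all tested genes. Pdcd1lg2, a ligand of PD-1, had 32.7 and 33.5 RPKM in WT 12 h cells, against 0.665 and 0.572 RPKM in WT 0 h cells (log2 change 4.40 ± 0.14). Cd160, a receptor for the TNF receptor family member HVEM, had 52.8 and 41.5 RPKM in WT 12 h cells, against 2.13 and 1.49 RPKM in WT 0 h cells (log2 change 4.10 ± 0.17). Not every inhibitory receptor followed Pdcd1 and Lag3: Ctla4, which competes with CD28 for its ligands, had 6.29 and 3.68 RPKM in WT 12 h cells, against 32.9 and 16 RPKM in WT 0 h cells (log2 change -2.04 ± 0.36). A pair of receptors for adhesion and costimulation were lower. Cd2 had 60.5 and 48.6 RPKM in WT 12 h cells, against 174 and 161 RPKM in WT 0 h cells (log2 change -1.61 ± 0.11). Slamf6 had 19.1 and 18.6 RPKM in WT 12 h cells, against 53.9 and 71.2 RPKM in WT 0 h cells (log2 change -1.67 ± 0.24). Cd69, the early activation marker that retains cells in lymphoid organs, had 110 and 126 RPKM in WT 12 h cells, against 182 and 131 RPKM in WT 0 h cells, and its change of -0.39 ± 0.14 (adjusted p = 0.032) lost its call when replicate 1 of either time was left out. Its transcript stood above 100 RPKM in all 4 libraries.

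Cytotoxic granule genes rose in 8 and fell in 3 of 16 tested, with a median of 0.62, or 0.43 relative to all tested genes. Gzmb, the protease granzyme B, had 84.6 and 39.2 RPKM in WT 12 h cells, against 1.54 and 0.951 RPKM in WT 0 h cells (log2 change 4.72 ± 0.36), and the rise was 4.17 without WT 12 h replicate 1 and 5.26 without replicate 2. Prf1, or perforin, had 84.8 and 75 RPKM in WT 12 h cells, against 25.9 and 15 RPKM in WT 0 h cells (log2 change 1.96 ± 0.34). Serpins that inhibit granule proteases inside the cells that make them rose too. Serpinb9 had 28.8 and 29.4 RPKM in WT 12 h cells, against 1.8 and 1.04 RPKM in WT 0 h cells (log2 change 3.65 ± 0.36). Serpinb6b had 32.1 and 32 RPKM in WT 12 h cells, against 2.33 and 1.8 RPKM in WT 0 h cells (log2 change 3.44 ± 0.29). Ctsw, a cathepsin of cytotoxic cells, was lower, with 53.1 and 47.6 RPKM in WT 12 h cells, against 120 and 121 RPKM in WT 0 h cells (log2 change -1.24 ± 0.14). Protease inhibitors and perforin were thus high together with Gzmb in both WT 12 h libraries.

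The machinery that makes ribosomes rose as a block. All 40 tested genes of ribosome biogenesis and RNA polymerase I rose, 39 of them at least 2-fold, with changes between 0.75 and 3.15 and a median of 1.89, or 1.69 relative to all tested genes. The count was also 40 without WT 12 h replicate 1, with median-ratio scaling and with quantile normalization. Nop2, an RNA methyltransferase of the nucleolus, had 181 and 167 RPKM in WT 12 h cells, against 16.3 and 21.6 RPKM in WT 0 h cells, and rose by 3.15 ± 0.12 (limma adjusted p = 4.1e-08). Nop16, a nucleolar protein, had 86.1 and 84.5 RPKM in WT 12 h cells, against 7.66 and 11 RPKM in WT 0 h cells (log2 change 3.08 ± 0.16). Dkc1, the pseudouridine synthase of box H/ACA particles, had 89 and 81.7 RPKM in WT 12 h cells, against 10.3 and 11.1 RPKM in WT 0 h cells (log2 change 2.88 ± 0.09). Bysl, needed for the small ribosomal subunit, had 49.4 and 45.7 RPKM in WT 12 h cells, against 5.04 and 6.61 RPKM in WT 0 h cells (log2 change 2.84 ± 0.12). Ncl, or nucleolin, the most abundant of those named here, had 419 and 368 RPKM in WT 12 h cells, against 88 and 89.1 RPKM in WT 0 h cells (log2 change 2.14 ± 0.11). The smallest rise was that of Polr1c, a subunit of RNA polymerases I and III, with 38.1 and 41.2 RPKM in WT 12 h cells, against 22.9 and 23.3 RPKM in WT 0 h cells (log2 change 0.75 ± 0.09).

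Myc binds the E-box CACGTG, and its presence is shown for Nop2, the member with the largest rise. The window runs from 250 bases before to 50 bases after the RefSeq start, is taken from RefSeq (GRCm38.p6), and is written 5′ to 3′ on the gene's strand with the match in capitals. Windows could be matched for 8082 of the 12726 tested genes. The Nop2 window spans chr6:125131633-125131932, plus strand, and holds 1 match.
Nop2: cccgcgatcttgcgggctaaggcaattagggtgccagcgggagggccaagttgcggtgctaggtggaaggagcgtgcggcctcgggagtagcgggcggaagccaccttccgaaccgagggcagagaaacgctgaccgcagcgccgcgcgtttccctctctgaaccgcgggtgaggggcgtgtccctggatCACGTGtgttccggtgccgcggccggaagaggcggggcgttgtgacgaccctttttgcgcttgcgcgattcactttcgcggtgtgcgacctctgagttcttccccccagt
CACGTG, which reads the same on both strands, was present in 10 of 36 windows of this group (27.8%), against 883 of all 8082 windows (10.9%). Every tested gene of this group rose, so the calls of the 10 genes with a match and the 26 without one could not differ.

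Other parts of the protein-making machinery rose as well. All 20 tRNA synthetases tested rose, 19 at least 2-fold, with a median of 1.79, or 1.60 relative to all tested genes, and the count was again 20 without WT 12 h replicate 1 and under both other scalings. Farsb, a chain of the phenylalanine enzyme, had 69.8 and 67.8 RPKM in WT 12 h cells, against 9.2 and 8.69 RPKM in WT 0 h cells (log2 change 2.81 ± 0.08). Mars, which charges the methionine tRNA, had 77.7 and 78.8 RPKM in WT 12 h cells, against 10.6 and 11.4 RPKM in WT 0 h cells (log2 change 2.73 ± 0.07). The smallest rise was in Qars, the glutamine enzyme, with 34.7 and 35.9 RPKM in WT 12 h cells, against 19 and 19.5 RPKM in WT 0 h cells (log2 change 0.84 ± 0.08).

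The motif TGATGNAAT, a form of the element bound by the amino acid response factor ATF4, was searched on both strands. It occurred in 3 of 12 windows of tRNA synthetase genes (25%) and 1 of 25 windows of amino acid supply genes (4%), against 27 of all 8082 windows (0.334%). Aars, the alanine enzyme, had 41.7 and 42.7 RPKM in WT 12 h cells, against 13.7 and 11.4 RPKM in WT 0 h cells (log2 change 1.68 ± 0.11), and its window is shown as one of the 3 because its rise is close to the median of the group. It spans chr8:111033592-111033891, plus strand, with the match, which lies on the opposite strand, in capitals.
Aars: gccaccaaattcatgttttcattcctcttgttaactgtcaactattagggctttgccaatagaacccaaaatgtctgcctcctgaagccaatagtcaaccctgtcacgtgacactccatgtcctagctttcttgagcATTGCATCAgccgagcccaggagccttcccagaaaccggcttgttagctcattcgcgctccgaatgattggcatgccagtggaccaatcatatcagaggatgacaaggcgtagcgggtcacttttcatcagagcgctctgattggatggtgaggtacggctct
The 9 tRNA synthetase genes with a window and no match rose too, but every tested gene of that group did, so the calls could not differ.

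Translation initiation factors rose in 32 and fell in 0 of 39 tested, with a median of 1.14, or 0.95 relative to all tested genes. With median-ratio scaling 30 rose and 4 fell. Eif5a, which helps ribosomes through difficult peptide bonds, had 644 and 644 RPKM in WT 12 h cells, against 71 and 69.6 RPKM in WT 0 h cells (log2 change 3.18 ± 0.08). Eif4ebp1, the repressor of cap-dependent initiation that mTOR inactivates, rose too, with 23.3 and 27.1 RPKM in WT 12 h cells, against 3.3 and 3.5 RPKM in WT 0 h cells (log2 change 2.57 ± 0.11). Mitochondrial ribosomal protein genes rose in 71 and fell in 0 of 75 tested, with a median of 1.27, or 1.08 relative to all tested genes, and with median-ratio scaling 68 rose and 2 fell. Mrps6 of the small subunit had 81.9 and 90.2 RPKM in WT 12 h cells, against 5.49 and 11.8 RPKM in WT 0 h cells (log2 change 3.26 ± 0.40). Mrpl42 had 50.5 and 55.2 RPKM in WT 12 h cells, against 6.68 and 5.52 RPKM in WT 0 h cells (log2 change 2.93 ± 0.12).

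Cytosolic ribosomal protein genes had the smallest median change of the protein synthesis groups. Of 82 tested, 58 rose and 0 fell with the deposited values, with a median of 0.48, or 0.29 relative to all tested genes, whereas with median-ratio scaling 33 rose and 13 fell. Without WT 12 h replicate 1, 49 rose and 0 fell, and without WT 0 h replicate 2, 6 fell. Rps27l, a diverged paralog of Rps27, was the largest rise, with 82.1 and 80.1 RPKM in WT 12 h cells, against 7.23 and 7.46 RPKM in WT 0 h cells (log2 change 3.30 ± 0.11). The 82 genes summed to 14831 and 14821 RPKM in WT 12 h cells, against 13730 and 11454 RPKM in WT 0 h cells, so that the resting libraries differed from each other by more than the nearest libraries of the groups did. Many of these genes have near-identical pseudogenes, and their values are uncertain to that extent.

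**Figure D3:**
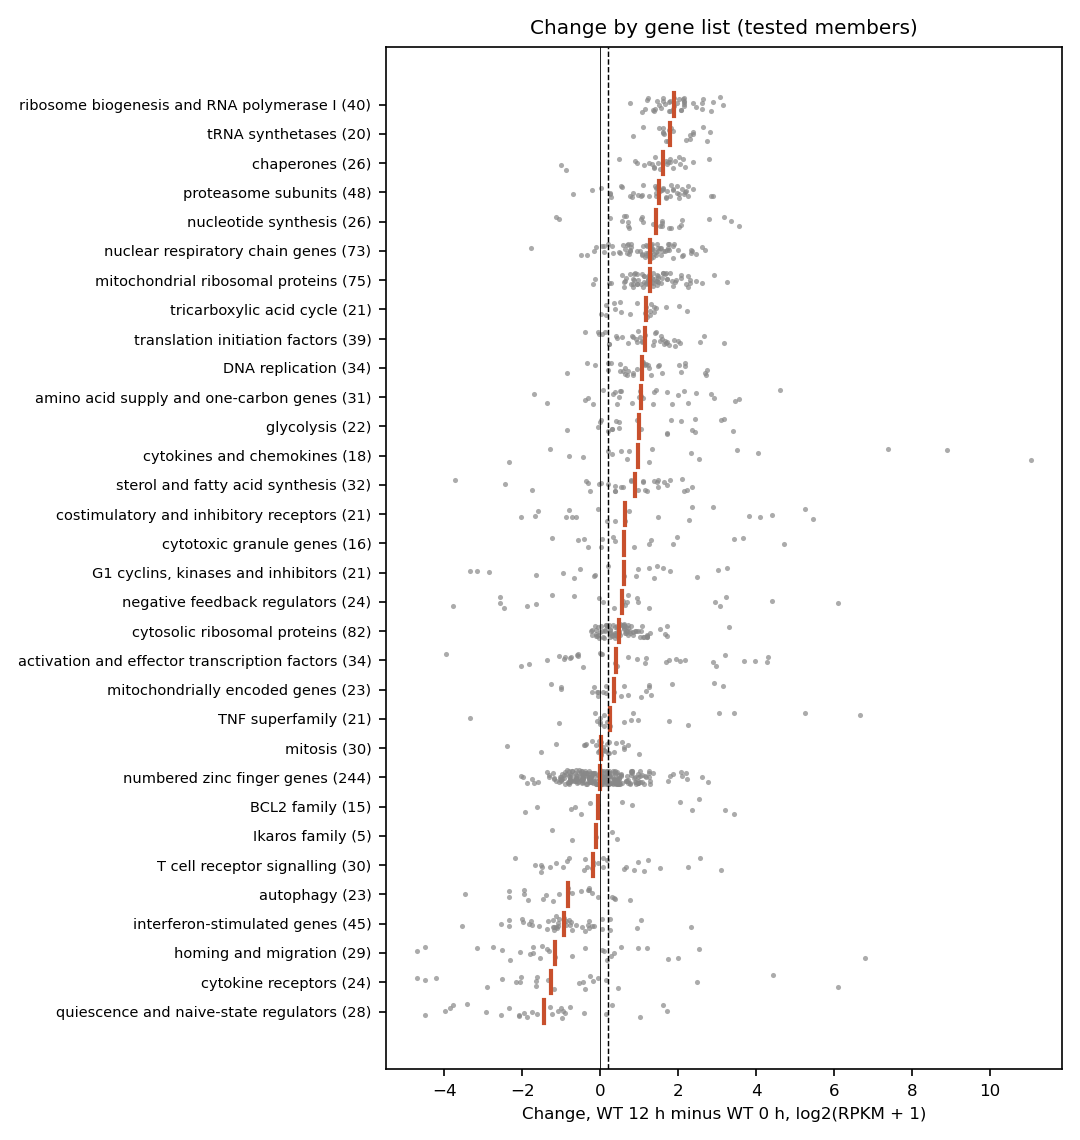
Change of every tested member (points, WT 12 h minus WT 0 h in log2(RPKM + 1)) for each gene group, with the group's median as a red bar and the median of all tested genes (0.20) as a dashed line. All 40 ribosome biogenesis genes and all 20 tRNA synthetase genes lie above 0, while most quiescence, cytokine receptor and homing genes lie below it.

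Protein quality control genes rose with few exceptions. Of 48 proteasome genes tested, 42 rose and 1 fell, with a median of 1.51, or 1.32 relative to all tested genes. The member that fell, Psmb10, is a catalytic subunit of the immunoproteasome, the form induced by interferon. The constitutive catalytic subunits rose. Psmb5 had 59.2 and 54.9 RPKM in WT 12 h cells, against 9.64 and 13 RPKM in WT 0 h cells (log2 change 2.25 ± 0.13). Psmb6 had 97.9 and 89.9 RPKM in WT 12 h cells, against 33.1 and 32.9 RPKM in WT 0 h cells (log2 change 1.48 ± 0.08). Psmb7 had 123 and 116 RPKM in WT 12 h cells, against 34.7 and 29.3 RPKM in WT 0 h cells (log2 change 1.87 ± 0.10). Psmb8, which replaces Psmb5 in the immunoproteasome, had 34.8 and 39 RPKM in WT 12 h cells, against 31.1 and 30.6 RPKM in WT 0 h cells, a change of 0.25 ± 0.14 that did not pass the test (adjusted p = 0.13). Psmb9, the counterpart of Psmb6, had 11.9 and 13.6 RPKM in WT 12 h cells, against 17.2 and 13 RPKM in WT 0 h cells, a change of -0.22 ± 0.18 (adjusted p = 0.3). It was called lower with median-ratio scaling and with quantile normalization (-0.51 with each). Psmb10, the counterpart of Psmb7, had 18.8 and 20 RPKM in WT 12 h cells, against 30.6 and 33.4 RPKM in WT 0 h cells, and fell by 0.69 ± 0.19 (adjusted p = 0.009).

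Chaperone genes rose in 24 and fell in 2 of 26 tested, with a median of 1.62, or 1.42 relative to all tested genes. Hspd1, the mitochondrial HSP60, had 169 and 170 RPKM in WT 12 h cells, against 26.8 and 21 RPKM in WT 0 h cells (log2 change 2.79 ± 0.14). Hsp90ab1, the constitutive cytosolic HSP90 and one of the most abundant transcripts, had 2500 and 2522 RPKM in WT 12 h cells, against 881 and 668 RPKM in WT 0 h cells (log2 change 1.71 ± 0.13). The members that fell were both HSP40 cochaperones. Dnajb1 had 45 and 52.4 RPKM in WT 12 h cells, against 99.7 and 80.7 RPKM in WT 0 h cells (log2 change -0.87 ± 0.13). Dnaja1 had 6.29 and 6.82 RPKM in WT 12 h cells, against 17.8 and 11.5 RPKM in WT 0 h cells (log2 change -1.02 ± 0.16). Dnajb1 is also known as a heat-shock-induced gene, and its level was highest in the unstimulated cells.

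Genes that supply amino acids and one-carbon units rose in 21 and fell in 2 of 31 tested, with a median of 1.04, or 0.84 relative to all tested genes, and with median-ratio scaling 19 rose and 4 fell. Shmt1, which takes a one-carbon unit from serine in the cytosol, had 58.2 and 50.2 RPKM in WT 12 h cells, against 3.33 and 4.05 RPKM in WT 0 h cells (log2 change 3.56 ± 0.17). Mthfd1, which passes it on through folate, had 111 and 99.8 RPKM in WT 12 h cells, against 8.15 and 9.28 RPKM in WT 0 h cells (log2 change 3.45 ± 0.13). Psat1, an enzyme of serine synthesis, had 37.7 and 38.5 RPKM in WT 12 h cells, against 4.04 and 4.19 RPKM in WT 0 h cells (log2 change 2.93 ± 0.07). Slc7a5, the large neutral amino acid transporter, had 99.3 and 99.4 RPKM in WT 12 h cells, against 22.3 and 26.1 RPKM in WT 0 h cells (log2 change 2.00 ± 0.09). Slc38a2, a transporter of small neutral amino acids, went the other way, with 34.3 and 47.6 RPKM in WT 12 h cells, against 129 and 141 RPKM in WT 0 h cells (log2 change -1.71 ± 0.17).

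Nucleotide synthesis genes rose in 22 and fell in 2 of 26 tested, with a median of 1.44, or 1.25 relative to all tested genes. Cad, which starts pyrimidine synthesis, had 113 and 98.7 RPKM in WT 12 h cells, against 7.97 and 8.09 RPKM in WT 0 h cells (log2 change 3.56 ± 0.09). Pfas, an enzyme of purine synthesis, had 36.8 and 36.3 RPKM in WT 12 h cells, against 2.54 and 2.82 RPKM in WT 0 h cells (log2 change 3.35 ± 0.12). Their values in replicates of a group lay close together, and the groups did not overlap.

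Of 22 glycolysis genes tested, 14 rose and 1 fell, with a median of 0.99, or 0.79 relative to all tested genes. Tpi1, triosephosphate isomerase, had 52.6 and 59.8 RPKM in WT 12 h cells, against 4.67 and 4.11 RPKM in WT 0 h cells (log2 change 3.41 ± 0.17). Hk2, the inducible hexokinase, had 22.5 and 21.2 RPKM in WT 12 h cells, against 1.64 and 1.42 RPKM in WT 0 h cells (log2 change 3.18 ± 0.14). Aldoa, aldolase, had 287 and 295 RPKM in WT 12 h cells, against 33.8 and 32.7 RPKM in WT 0 h cells (log2 change 3.09 ± 0.08). Ldha, which makes lactate, had 246 and 229 RPKM in WT 12 h cells, against 36.6 and 50.3 RPKM in WT 0 h cells (log2 change 2.44 ± 0.18). The glucose transporters did not pass the test: Slc2a1, or GLUT1, had 28.9 and 29.5 RPKM in WT 12 h cells, against 26.6 and 17.6 RPKM in WT 0 h cells (adjusted p = 0.056). Slc2a3, or GLUT3, had 4.87 and 5.26 RPKM in WT 12 h cells, against 6.84 and 4.15 RPKM in WT 0 h cells (adjusted p = 0.74). Without WT 0 h replicate 1 Slc2a1 was called higher (0.70), and without WT 0 h replicate 2 Slc2a3 was called lower (-0.37). Pdk1, which keeps pyruvate out of the mitochondria, was the member that fell, with 8.88 and 8.97 RPKM in WT 12 h cells, against 16.1 and 18 RPKM in WT 0 h cells (log2 change -0.86 ± 0.14). Several glycolytic genes have processed pseudogenes that can share reads.

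Mitochondrial proteins are encoded partly in the nucleus and partly in the mitochondria. Tricarboxylic acid cycle genes rose in 17 and fell in 0 of 21 tested, with a median of 1.17, or 0.98 relative to all tested genes. Fh1, fumarase, had 29.9 and 28.1 RPKM in WT 12 h cells, against 5.13 and 5.7 RPKM in WT 0 h cells (log2 change 2.23 ± 0.11). Mdh2, malate dehydrogenase, had 218 and 208 RPKM in WT 12 h cells, against 55 and 47.8 RPKM in WT 0 h cells (log2 change 2.03 ± 0.10). Nuclear genes of the respiratory chain rose in 64 and fell in 3 of 73 tested, with a median of 1.28, or 1.08 relative to all tested genes. Uqcr11 of complex III had 67.8 and 68.3 RPKM in WT 12 h cells, against 9.08 and 10.5 RPKM in WT 0 h cells (log2 change 2.68 ± 0.13). Ndufa12 of complex I had 20.2 and 22.9 RPKM in WT 12 h cells, against 2.58 and 2.76 RPKM in WT 0 h cells (log2 change 2.62 ± 0.09). Cox7a2l of the same group fell, with 26.8 and 34 RPKM in WT 12 h cells, against 122 and 92.6 RPKM in WT 0 h cells (log2 change -1.78 ± 0.14).

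The 23 mitochondrially encoded genes had 8 rises and 2 falls and a median of 0.35, or 0.16 relative to all tested genes. With median-ratio scaling 7 rose and 4 fell, and without WT 0 h replicate 2, 5 rose. Apart from mt-Nd1 and mt-Nd2, the rises with the deposited values were those of tRNA genes, some of them at low levels. Among these, mt-Tv had 2.98 and 0.434 RPKM in WT 12 h cells, against 0 RPKM in both WT 0 h libraries. Of the genes for respiratory subunits, mt-Nd1 of complex I had 1802 and 1784 RPKM in WT 12 h cells, against 1252 and 968 RPKM in WT 0 h cells (log2 change 0.70 ± 0.12). For complex IV, mt-Co1 had 1517 and 1612 RPKM in WT 12 h cells, against 1997 and 1631 RPKM in WT 0 h cells (log2 change -0.21 ± 0.12, adjusted p = 0.14). For complex III, mt-Cytb had 1712 and 1575 RPKM in WT 12 h cells, against 1876 and 1595 RPKM in WT 0 h cells (log2 change -0.08 ± 0.10, adjusted p = 0.51). The ribosomal RNA mt-Rnr1 had 97.3 and 106 RPKM in WT 12 h cells, against 261 and 231 RPKM in WT 0 h cells (log2 change -1.27 ± 0.16). The labels' protocols describe mRNA libraries, so values of the ribosomal RNA and tRNA genes may not follow the amounts of these RNAs. Both mt-Co1 and mt-Cytb were called lower under the other scalings. With median-ratio scaling mt-Co1 changed by -0.51 and mt-Cytb by -0.38, and with quantile normalization mt-Co1 changed by -0.44 and mt-Cytb by -0.35. The call of mt-Co1 also depended on 1 library, since its change was -0.35 and passed the test without WT 0 h replicate 2.

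Most genes of sterol and fatty acid synthesis rose. Of 32 tested genes of sterol and fatty acid synthesis and its regulation, 22 rose and 3 fell, with a median of 0.88, or 0.68 relative to all tested genes, and with median-ratio scaling 19 rose and 6 fell. Sqle, squalene epoxidase, had 18.2 and 21.1 RPKM in WT 12 h cells, against 3.45 and 2.68 RPKM in WT 0 h cells (log2 change 2.35 ± 0.11). Fasn, fatty acid synthase, had 141 and 124 RPKM in WT 12 h cells, against 22.9 and 32.8 RPKM in WT 0 h cells (log2 change 2.23 ± 0.16). The members that fell were a pair of cholesterol exporters and Elovl5. Abcg1 had 0.648 and 1 RPKM in WT 12 h cells, against 22.4 and 24.2 RPKM in WT 0 h cells (log2 change -3.74 ± 0.15). Abca1 had 0.0834 and 0.205 RPKM in WT 12 h cells, against 4.8 and 5.62 RPKM in WT 0 h cells (log2 change -2.44 ± 0.11). Elovl5, which lengthens polyunsaturated fatty acids, had 21.6 and 23.4 RPKM in WT 12 h cells, against 65.8 and 93.1 RPKM in WT 0 h cells (log2 change -1.76 ± 0.22). Both exporters are known targets of the sterol-sensing liver X receptors, and both were near or below 1 RPKM in the WT 12 h libraries.

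Cell cycle genes are given in the order of the phases in which they act. Of 21 tested G1 cyclins, kinases and inhibitors, 11 rose and 7 fell, with a median of 0.61, or 0.42 relative to all tested genes. Cdk4, the G1 kinase, had 129 and 127 RPKM in WT 12 h cells, against 15 and 15 RPKM in WT 0 h cells (log2 change 3.01 ± 0.09). Its partner Ccnd2, cyclin D2, had 245 and 208 RPKM in WT 12 h cells, against 28.4 and 54.5 RPKM in WT 0 h cells (log2 change 2.49 ± 0.34). Cdkn1b, the inhibitor p27, had 6.18 and 8.77 RPKM in WT 12 h cells, against 73.4 and 74.3 RPKM in WT 0 h cells (log2 change -3.16 ± 0.17). Cdkn2d, the inhibitor p19, had 5.8 and 6.46 RPKM in WT 12 h cells, against 60.7 and 42.1 RPKM in WT 0 h cells (log2 change -2.86 ± 0.21). Ccng2, a cyclin of arrested cells, had 1.61 and 2.61 RPKM in WT 12 h cells, against 27.2 and 33.8 RPKM in WT 0 h cells (log2 change -3.35 ± 0.20). Cdkn1a, the inhibitor p21, rose instead, with 12.2 and 25.4 RPKM in WT 12 h cells, against 1.41 and 0.588 RPKM in WT 0 h cells (log2 change 3.25 ± 0.34). The cyclin E genes, which act at the entry to S phase, moved in opposite directions. Ccne1, cyclin E1, rose, with 6.99 and 7.21 RPKM in WT 12 h cells, against 1.29 and 2.07 RPKM in WT 0 h cells (log2 change 1.61 ± 0.24). Ccne2, cyclin E2, was lower and at low levels, with 0.707 and 0.711 RPKM in WT 12 h cells, against 1.68 and 1.81 RPKM in WT 0 h cells (log2 change -0.68 ± 0.14).

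DNA replication genes rose in 27 and fell in 1 of 34 tested, with a median of 1.08, or 0.89 relative to all tested genes. Subunits of the replicative helicase were among the largest rises. Mcm5 had 108 and 115 RPKM in WT 12 h cells, against 16.8 and 16 RPKM in WT 0 h cells (log2 change 2.70 ± 0.13). Mcm2 had 117 and 116 RPKM in WT 12 h cells, against 17.6 and 16.9 RPKM in WT 0 h cells (log2 change 2.68 ± 0.11). Uhrf1, which maintains DNA methylation after replication, had 11.6 and 15.3 RPKM in WT 12 h cells, against 0.963 and 1.38 RPKM in WT 0 h cells (log2 change 2.73 ± 0.21). Dbf4, the activating subunit of the kinase that fires origins, was the member that fell, with 5.72 and 4.73 RPKM in WT 12 h cells, against 13.4 and 7.83 RPKM in WT 0 h cells (log2 change -0.86 ± 0.21).

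Mitosis genes had 6 rises and 4 falls among 30 tested and a median of 0.02, or -0.17 relative to all tested genes; the median was -0.01 with median-ratio scaling. Without WT 12 h replicate 1, 3 rose and 3 fell, and 3 rose without any 1 of the other 3 libraries too. Mki67, which encodes the proliferation antigen Ki-67, had 0.257 and 0.312 RPKM in WT 12 h cells, against 0.725 and 0.726 RPKM in WT 0 h cells, and did not pass the test (adjusted p = 0.057). It was called lower with median-ratio scaling (-0.54), quantile normalization (-0.48), a pseudocount of 0.1 (-1.10), the replicate block (-0.43) and limma-voom on recovered reads (-1.34). Ndc80, a kinetochore protein, had 1.03 and 0.816 RPKM in WT 12 h cells, against 8.85 and 9.32 RPKM in WT 0 h cells (log2 change -2.39 ± 0.16). Cenpa, the centromeric histone, had 10 and 8.42 RPKM in WT 12 h cells, against 31.6 and 24.7 RPKM in WT 0 h cells (log2 change -1.51 ± 0.24). Bub1b, a checkpoint kinase, was higher, with 2.32 and 2.4 RPKM in WT 12 h cells, against 0.575 and 0.822 RPKM in WT 0 h cells (log2 change 0.99 ± 0.23). The 30 genes summed to 36.6 and 36.5 RPKM in WT 12 h cells, against 63.6 and 57.1 RPKM in WT 0 h cells. The falls of Cenpa and Ndc80 together were at least as large as that of the sum, which therefore says little about the other members.

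The WT 24 h libraries place these values in time. They share the WT 12 h libraries with the comparison above, so each step is given by its own values. Between 24 h and 12 h, 3052 genes passed the test (24.0%), of which 2169 (17.0%) were higher and 883 (6.94%) lower at 24 h. Leaving out replicate 1 of WT 12 h gave 1497 genes, and leaving out replicate 1 or replicate 2 of WT 24 h gave 1514 or 1285. The median change of the mitosis group between 24 h and 12 h was 3.06, and Mki67 had 50.5 and 61.7 RPKM in WT 24 h cells. That of the replication group was 1.37, with Mcm5 at 246 and 252 RPKM and Uhrf1 at 110 and 120 RPKM at 24 h. Xcl1 had 1394 and 1235 RPKM at 24 h, below both WT 12 h values. Of the 2668 genes that were at least 2-fold higher at 12 h than at 0 h, 339 were higher again at 24 h and 358 were lower at 24 h than at 12 h. Of the 1501 genes that were at least 2-fold lower at 12 h, 277 were higher at 24 h than at 12 h and 68 were lower again.

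**Figure D4:**
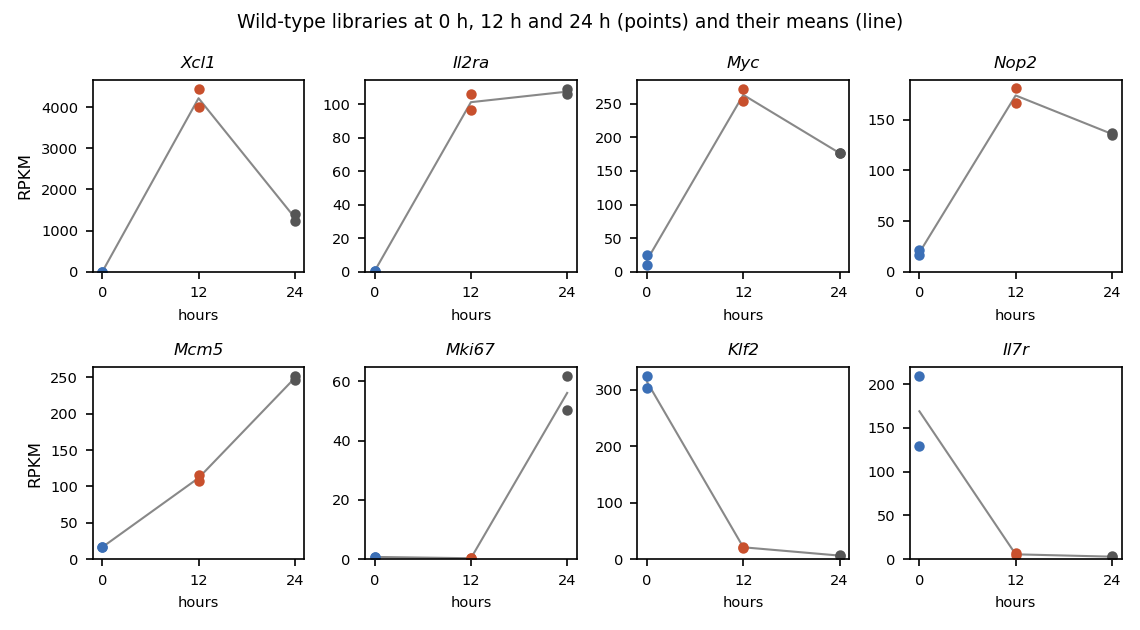
RPKM of 8 genes in WT cells at 0, 12 and 24 h; points are the 2 libraries of each time and lines join their means. Xcl1, Il2ra, Myc and Nop2 are high at 12 h, Mcm5 is higher at 24 h than at 12 h, Mki67 is near 0 until 24 h, and Klf2 and Il7r are high at 0 h only.

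Interferon-stimulated genes were mostly lower in stimulated cells. Of 45 tested, 3 rose and 32 fell, 22 of them at least 2-fold, with a median of -0.94, or -1.14 relative to all tested genes. Without WT 12 h replicate 1, 4 rose and 28 fell. Irf7, the factor that amplifies type I interferon, had 0.872 and 1.22 RPKM in WT 12 h cells, against 22.7 and 22.8 RPKM in WT 0 h cells, and fell by 3.54 ± 0.16 (limma adjusted p = 9.5e-08). Ddx58, the RNA sensor RIG-I, had 0.928 and 1.41 RPKM in WT 12 h cells, against 10.6 and 12.5 RPKM in WT 0 h cells (log2 change -2.54 ± 0.14). Samd9l, an antiviral and growth-limiting protein, had 3.47 and 4.29 RPKM in WT 12 h cells, against 20.7 and 27.2 RPKM in WT 0 h cells (log2 change -2.35 ± 0.14). Isg15, an interferon-induced ubiquitin-like protein, had 2.01 and 1.58 RPKM in WT 12 h cells, against 9.14 and 5.84 RPKM in WT 0 h cells (log2 change -1.58 ± 0.22).

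The members that rose were Gbp2, Irgm1 and Bst2. Gbp2, a guanylate-binding GTPase, had 97 and 135 RPKM in WT 12 h cells, against 17.6 and 27.8 RPKM in WT 0 h cells (log2 change 2.32 ± 0.25). Irgm1, an immunity-related GTPase, had 22 and 22.1 RPKM in WT 12 h cells, against 10.8 and 9.53 RPKM in WT 0 h cells (log2 change 1.05 ± 0.21). Bst2, or tetherin, had 71.8 and 71.6 RPKM in WT 12 h cells, against 38.5 and 35.4 RPKM in WT 0 h cells (log2 change 0.94 ± 0.14). Gbp2 and Irgm1 belong to the GTPase families that interferon gamma is known to induce, and Bst2 is best known for its induction by type I interferon. In all 3 genes both WT 12 h values lay above both WT 0 h values. The other listed members of these GTPase families did not rise. Gbp3 fell (log2 change -1.22 ± 0.23), and Gbp4 (-0.31 ± 0.23), Gbp7 (-0.30 ± 0.18) and Igtp (0.04 ± 0.19) did not pass the test.

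The interferon-stimulated response element was searched on both strands as GAAA, any 2 bases and GAAA again. It was present in 18 of 33 windows of this group (54.5%), against 252 of all 8082 windows (3.12%). The windows of Isg15, which fell, and of Gbp2, which rose, are shown because both hold the motif, marked in capitals. That of Isg15 spans chr4:156200769-156201068 on the minus strand, where 3 matches overlap, and that of Gbp2 spans chr3:142620413-142620712 on the plus strand, with its match on the opposite strand.
Isg15: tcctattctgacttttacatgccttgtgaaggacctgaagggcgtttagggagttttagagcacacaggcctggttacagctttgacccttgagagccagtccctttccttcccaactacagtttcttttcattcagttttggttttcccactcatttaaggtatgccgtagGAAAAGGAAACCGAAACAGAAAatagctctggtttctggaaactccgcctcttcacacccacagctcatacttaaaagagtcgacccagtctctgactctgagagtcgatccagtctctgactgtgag
Gbp2: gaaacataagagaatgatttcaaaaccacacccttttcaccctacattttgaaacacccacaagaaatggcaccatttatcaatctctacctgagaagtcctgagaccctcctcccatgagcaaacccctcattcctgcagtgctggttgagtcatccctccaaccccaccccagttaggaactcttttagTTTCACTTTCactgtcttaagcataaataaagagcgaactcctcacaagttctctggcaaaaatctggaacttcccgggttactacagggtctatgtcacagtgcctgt
Among the 18 genes with a match 3 rose and 12 fell, and among the 15 without one 0 rose and 11 fell, so genes with these letters in the window moved in both directions.

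Autophagy genes fell in 16 and rose in 4 of 23 tested, with a median of -0.83, or -1.03 relative to all tested genes. Without WT 12 h replicate 1, 14 fell and 2 rose, the rises were also 2 without WT 12 h replicate 2 or WT 0 h replicate 2, and with median-ratio scaling 19 fell and 1 rose. The LC3 genes, whose proteins coat autophagosome membranes, fell furthest. Map1lc3a had 1.08 and 0.888 RPKM in WT 12 h cells, against 22.6 and 19.1 RPKM in WT 0 h cells (log2 change -3.46 ± 0.16). Map1lc3b had 3.82 and 4.48 RPKM in WT 12 h cells, against 24.5 and 25.7 RPKM in WT 0 h cells (log2 change -2.35 ± 0.12). Ulk1, the kinase that starts autophagy, had 8.59 and 10.5 RPKM in WT 12 h cells, against 47.5 and 57.2 RPKM in WT 0 h cells (log2 change -2.34 ± 0.14). Atg5, needed to lipidate these proteins, was among the rises, with 18.6 and 18.2 RPKM in WT 12 h cells, against 9.98 and 10.9 RPKM in WT 0 h cells (log2 change 0.76 ± 0.10).

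Genes of the BCL2 family moved in both directions: of 15 tested, 7 rose and 5 fell, with a median of -0.05, or -0.24 relative to all tested genes, and without WT 12 h replicate 1 the median was 0.04. Genes that protect cells did not move together. Bcl2l1, or BCL-XL, had 23.5 and 22.9 RPKM in WT 12 h cells, against 3.36 and 3 RPKM in WT 0 h cells (log2 change 2.53 ± 0.10). Bcl2 itself had 9.09 and 7.32 RPKM in WT 12 h cells, against 13.3 and 15.4 RPKM in WT 0 h cells (log2 change -0.74 ± 0.13). Mcl1 had 98.3 and 106 RPKM in WT 12 h cells, against 162 and 161 RPKM in WT 0 h cells (log2 change -0.65 ± 0.10). Bcl2a1b, a further protective member, had 18.8 and 20.2 RPKM in WT 12 h cells, against 1.05 and 0.801 RPKM in WT 0 h cells (log2 change 3.42 ± 0.10), a value that near-identical copies of the gene make uncertain. Genes that promote death did not move together either. Bax, Bak1 (log2 change 0.82 ± 0.09) and the BH3-only gene Bid rose. The BH3-only genes Bmf, Bbc3 and Bcl2l11 (log2 change -0.49 ± 0.16) fell, and Bik, Bad and Pmaip1 did not pass the test. Bid had 17.3 and 15.6 RPKM in WT 12 h cells, against 2.89 and 3.62 RPKM in WT 0 h cells (log2 change 2.04 ± 0.15). Bax had 239 and 219 RPKM in WT 12 h cells, against 44.2 and 43.6 RPKM in WT 0 h cells (log2 change 2.35 ± 0.10). Bmf had 0.705 and 0.935 RPKM in WT 12 h cells, against 4.89 and 7.12 RPKM in WT 0 h cells (log2 change -1.93 ± 0.17). Bbc3, or PUMA, had 7.59 and 12 RPKM in WT 12 h cells, against 47.8 and 20.7 RPKM in WT 0 h cells (log2 change -1.62 ± 0.40). The groups did not overlap for the genes named here as rising or falling, as for most tested genes.

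The Ikaros family, zinc-finger factors of lymphocyte development, had 1 rise and 2 falls among 5 tested genes, and with median-ratio scaling 0 rises and 3 falls. The family had 0 rises and 1 fall without WT 12 h replicate 1. Ikzf1, which encodes Ikaros, had 128 and 125 RPKM in WT 12 h cells, against 90.9 and 115 RPKM in WT 0 h cells, and its rise of 0.30 ± 0.10 (adjusted p = 0.026) was -0.00088 with median-ratio scaling and -0.12 with quantile normalization, and it lost its call when either WT 12 h library or replicate 1 of WT 0 h was left out. Ikzf3, or Aiolos, had 31.7 and 25 RPKM in WT 12 h cells, against 17.8 and 24.4 RPKM in WT 0 h cells (adjusted p = 0.052). It was called higher with a filter of 5 RPKM (0.42) and with limma-voom on recovered reads (0.43). The same held when replicate 2 of WT 12 h (0.58) or of WT 0 h (0.63) was left out. Ikzf2, or Helios, had 1.13 and 1.28 RPKM in WT 12 h cells, against 1.88 and 3.63 RPKM in WT 0 h cells (log2 change -0.73 ± 0.28) and lost its call when either WT 12 h library or replicate 2 of WT 0 h was left out. Ikzf5, or Pegasus, had 2.42 and 2.85 RPKM in WT 12 h cells, against 8.45 and 6.9 RPKM in WT 0 h cells (log2 change -1.25 ± 0.14). The numbered zinc-finger genes, a large and mostly uncharacterised family, rose in 73 and fell in 81 of 244 tested, with a median of 0.00, or -0.19 relative to all tested genes, and with median-ratio scaling 52 rose and 109 fell. Zfp948 had 10.6 and 15.7 RPKM in WT 12 h cells, against 0.523 and 1.72 RPKM in WT 0 h cells (log2 change 2.77 ± 0.36), the largest change of this family.

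The response to 12 h of stimulation differed between Zn4 and WT cells in 651 genes (5.12%) by the test of the difference (limma interaction, Benjamini-Hochberg adjusted p under 0.05), of which 196 (1.54%) had a more positive change in Zn4 cells and 455 (3.58%) a more negative one. Leaving out replicate 1 of Zn4 12 h gave 232 genes, replicate 1 of Zn4 0 h gave 415, replicate 2 of Zn4 0 h gave 364, replicate 1 of WT 12 h gave 434 and replicate 2 of WT 12 h gave 252. The Zn4 12 h libraries held Y-linked sums of 43.4 and 21 RPKM and Xist levels of 0.0258 and 24.3 RPKM against their female labels, and the part of this in the difference was not tested. Among genes that also passed the test in WT cells, the largest difference was that of Ifng (4.85 ± 0.28). The cytokine genes Il3 (7.16 ± 0.28) and Ccl1 (6.43 ± 0.59) had larger ones. Neither passed the test in WT cells, and both were chosen after their values were seen. Il2 and Gbp2, described above, also differed, by 3.70 ± 0.28 and -3.04 ± 0.35.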

How the data were processed

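RNA was measured in 12 libraries of mouse CD8 T cells, 6 groups of 2, of which 4 make the comparison. Libraries were stranded, single-end mRNA libraries, per the labels' protocols. The authors aligned reads with TopHat2 2.0.12 and counted them with HTSeq 0.6.1 against mm10 (GRCm38), per the submitters' processing notes, and deposited RPKM values, which scale reads by gene length and library total. The table has 12892 lines and 12885 symbols, and for the 7 symbols on 2 lines the line given before the other was kept. Whole reads could be recovered for all 12885 genes (100.0%, tolerance 0.02 reads), which gives the library totals.

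The test used log2(RPKM + 1), with a pseudocount of 1, for genes that reached 1 RPKM in 2 or more libraries. All 12 libraries entered 1 fit in limma 3.58.1 under R 4.3.3, with a mean per group, a trended empirical Bayes prior and 6 residual degrees of freedom. P-values were adjusted over all tested genes by the Benjamini-Hochberg method and called under 0.05. Promoter windows come from the RefSeq table of GRCm38.p6.

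The comparison, its members and the 38 gene lists were chosen with earlier results of these data known. Named genes are the 10 largest rises and falls, up to 4 called members of each list with the largest changes, fixed T cell genes, the 10 highest genes going between absence and expression, the 3 largest Zn4 minus WT differences in each direction among genes that also passed the WT test, and the 10 largest replicate differences per group; other list members were named after their values were seen. Some genes that these rules select are not reported here. Alternatives were a pseudocount of 0.1, no filter or 5 RPKM, 2 other scalings, robust estimation, fewer libraries in the fit, the replicate number as a block, limma-voom on the recovered reads, and each library left out. Groups share replicate numbers; deviations of same-numbered WT 12 h and WT 0 h libraries correlated at 0.07 across genes, and no label says that a number marks a shared animal or day, so the numbers were not taken as pairs.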

Additional observations from a re-analysis of the deposited data

Results flagged for a closer look

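The response to 12 h of stimulation differed between Zn4 and WT cells, by the test of the difference itself, for 32 of 253 genes selected for naming. Over all tested genes it differed for 651 of 12726 (5.12%). Some of the 253 genes were selected by this difference or after their values were seen, so the counts cannot be compared. Of the 32 genes 31 are given here, 12 with a positive and 19 with a negative difference, and the cause was not tested. Those described in full have the 3 largest differences in each direction among genes that also passed the test between WT 12 h and WT 0 h cells. The difference is the Zn4 change minus the WT change on the log2(RPKM + 1) scale (limma interaction, Benjamini-Hochberg adjusted p). Ifng had 375 and 570 RPKM in Zn4 12 h cells and 0.443 and 0.399 RPKM in Zn4 0 h cells, against 13.4 and 9.7 RPKM in WT 12 h cells and 0.0971 and 0.102 RPKM in WT 0 h cells, a difference of 4.85 ± 0.28 (adjusted p = 4.4e-05). Il2 had 35.9 and 30.3 RPKM in Zn4 12 h cells and 0.0334 and 0.0648 RPKM in Zn4 0 h cells, against 1.08 and 2.2 RPKM in WT 12 h cells and 0.0683 and 0 RPKM in WT 0 h cells, a difference of 3.70 ± 0.28 (adjusted p = 0.00021). Hbegf, a ligand of the EGF receptor, had 14.8 and 16.4 RPKM in Zn4 12 h cells, against 0.278 and 0.442 RPKM in WT 12 h cells, a difference of 3.54 ± 0.18 (adjusted p = 2.4e-05). All 3 genes had groups at 12 h that did not overlap, with the Zn4 cells above the WT cells. Hbegf was low in WT cells, and its WT call was lost without WT 0 h replicate 1 (0.32) or replicate 2 (0.37). That call was also lost without WT 12 h replicate 2 (0.26).

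A more negative change in Zn4 cells was found for Cd163l1, Pyroxd2 and Gbp2. Cd163l1, a scavenger receptor known from gamma-delta T cells, had 0.237 and 0.684 RPKM in Zn4 12 h cells and 33.6 and 34.6 RPKM in Zn4 0 h cells, against 0.0238 and 0.052 RPKM in WT 12 h cells and 0.543 and 0.402 RPKM in WT 0 h cells, a difference of -4.10 ± 0.21 (adjusted p = 2.4e-05). Pyroxd2 had 0.137 and 0.279 RPKM in Zn4 12 h cells and 17.7 and 19.8 RPKM in Zn4 0 h cells, against 0.119 and 0.106 RPKM in WT 12 h cells and 1.29 and 0.957 RPKM in WT 0 h cells, a difference of -3.10 ± 0.19 (adjusted p = 6.1e-05). Both were high in Zn4 cells at rest and low in both genotypes at 12 h. The WT call of Cd163l1 was lost without replicate 1 of WT 0 h (-0.43) or of WT 12 h (-0.48). Gbp2 had 25 and 33.4 RPKM in Zn4 12 h cells and 44.3 and 52.8 RPKM in Zn4 0 h cells, against 97 and 135 RPKM in WT 12 h cells and 17.6 and 27.8 RPKM in WT 0 h cells, a difference of -3.04 ± 0.35 (adjusted p = 0.0023).

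Il3, Ccl1 and Gzmm did not pass the test in WT cells and were chosen after their values were seen. The differences of Il3 and Ccl1 exceed that of Ifng, and that of Gzmm is next to that of Gbp2. Il3, a growth factor of blood cells, had 135 and 212 RPKM in Zn4 12 h cells and 0.0607 and 0 RPKM in Zn4 0 h cells, against 0.131 and 0.333 RPKM in WT 12 h cells and 0 and 0.13 RPKM in WT 0 h cells, a difference of 7.16 ± 0.28 (limma adjusted p = 8e-06). Ccl1, a chemokine, had 94.3 and 165 RPKM in Zn4 12 h cells and 0 and 0.0156 RPKM in Zn4 0 h cells, against 0.695 and 0.24 RPKM in WT 12 h cells and 0 RPKM in both WT 0 h libraries, a difference of 6.43 ± 0.59 (limma adjusted p = 0.00079). Gzmm, a granzyme, had 2.63 and 3.36 RPKM in Zn4 12 h cells and 36.8 and 18.3 RPKM in Zn4 0 h cells, against 0.923 and 1.02 RPKM in WT 12 h cells and 0.637 and 0.528 RPKM in WT 0 h cells, a difference of -3.08 ± 0.37 (limma adjusted p = 0.0024).

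The remaining differences were smaller. Among secreted and surface ligands they were 2.39 for Ccl3, 2.26 for Ccl9, 1.94 for Lta, 1.23 for Xcl1 and 0.75 for Fasl. For other genes with a more positive change in Zn4 cells they were 1.59 for Lad1, 1.55 for Bcl2l1, 1.54 for Cd247 and 0.72 for Bcat1. Among signalling inhibitors, receptors and adaptors the difference was -1.78 for Spry2, -0.82 for Spry1, -1.43 for Rgs16, -1.65 for Itgb7, -1.25 for Cd2 and -1.05 for Lcp2. Among transcription factors it was -2.34 for Tbx21, -1.68 for Egr1, -0.87 for Lef1 and -0.73 for Bach2. Antigen presentation and interferon-stimulated genes had values of -2.04 for Cd74, -1.93 for Irgm1, -1.33 for Psmb9 and -1.17 for Psmb8. The difference was -1.55 for mt-Rnr1 and -0.47 for Qars. A negative difference does not by itself mean a lower level in Zn4 cells at 12 h. Spry2 had 69.6 and 55.2 RPKM in Zn4 12 h cells and 9.01 and 9.35 RPKM in Zn4 0 h cells. In WT cells Spry2 had 27 and 27.5 RPKM at 12 h and 0.393 and 0.274 RPKM at 0 h. Irgm1, in contrast, was lower at 12 h, with 6.46 and 8.45 RPKM in Zn4 cells against 22 and 22.1 RPKM in WT cells.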

How the results depend on the processing

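The count of genes called between WT 12 h and WT 0 h cells, 8928 as reported, was 6970 with a filter of 5 RPKM, which tests fewer genes, 7962 in a fit of only the WT libraries, and between 8876 and 9048 with a pseudocount of 0.1, no filter, either other scaling, robust estimation, the replicate block or limma-voom. Leaving out 1 library gave 7930 to 8478. The count at least 2-fold changed, 4169, was 5540 with a pseudocount of 0.1, 5652 with limma-voom and 4086 to 4254 with 1 library left out. With the replicate block 9028 genes were called, 4177 of them at least 2-fold changed, 3139 between WT 24 h and 12 h cells and 703 for the Zn4 minus WT difference, and of 253 named genes the block changed 4 calls, among them Mki67 and Cd4, each gaining one. Between WT 24 h and 12 h cells the count of 3052 was 5213 in a fit of only the WT libraries and 1285 to 2036 with 1 library left out. The Zn4 minus WT count of 651 was 232 to 548 with 1 library left out. The causes were not tested. Relative to the reported calls, quantile normalization turned 4 to the opposite direction. Among named genes, Ikzf1 changed by -0.00088 with median-ratio scaling and -0.12 with quantile normalization, Psmb8 by -0.05 and -0.11, and Gm26115 by -0.06 with median-ratio scaling. With 1 library left out, changes ran between -0.13 and 3.09 for Gm13192, -2.07 and 0.21 for Gm26359, -0.91 and 1.18 for Gm26115, -0.31 and 1.60 for Traj43, -4.92 and 0.82 for Xist, -1.84 and 0.21 for Slc15a2, -1.43 and 0.57 for Mir7578, -0.37 and 0.24 for Slc2a3, -0.19 and 0.04 for mt-Cytb, and -0.25 and 0.01 for Ikzf4. With 2 libraries a group and at most 1 left in a group when a library is dropped, the lone library is assumed to vary like the other groups.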

Other observations

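Replicates of a group agreed closely across genes, with r = 0.992 between the WT 12 h libraries and 0.980 between the WT 0 h libraries, and their log2 differences had an SD of 0.238 at 12 h and 0.346 at 0 h. The genes that differed most between the WT 12 h libraries were sex-linked: Xist, Eif2s3y with 17.5 and 0 RPKM, Ddx3y with 16.5 and 0 RPKM, and Kdm5d with 3.78 and 0.00198 RPKM. Beyond these, Ly6k, a surface protein of the Ly6 family, had 9.58 and 1.73 RPKM in WT 12 h cells, against 1.93 and 0.493 RPKM in WT 0 h cells, and Slc15a2, a peptide transporter, had 0.794 and 6.45 RPKM in WT 12 h cells, against 4.26 and 6.86 RPKM in WT 0 h cells.

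Within the WT 0 h libraries a different set of genes was uneven. Atf3, a stress-induced transcription factor, had 6.06 and 7.23 RPKM in WT 12 h cells, against 6.44 and 0.515 RPKM in WT 0 h cells. Gm13192 had 29.1 and 24.3 RPKM in WT 12 h cells, against 2.25 and 29.3 RPKM in WT 0 h cells, and Degs2, an enzyme of sphingolipid synthesis, had 9.45 and 11.6 RPKM in WT 12 h cells, against 1.43 and 8.84 RPKM in WT 0 h cells. In each of these genes 1 resting library lay inside or near the WT 12 h range and the other far below it.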
